A study of Mus musculus with 22 samples.

Results

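The 5 genes described here, Xrcc6, Xrcc5, Prkdc, Dclre1c and Xrcc4, encode core proteins of classical non-homologous end joining. They were chosen by symbol, as every array probe carrying one of these names, with none written G22p1. They are 5 of 24618 autosomal genes on the array, covered by 80 of its 235402 probes. Non-homologous end joining repairs DNA double-strand breaks by holding the broken ends together and ligating them, and developing T cells depend on it to join the breaks that the RAG recombinase makes in their receptor genes. Ku70 (Xrcc6) and Ku80 (Xrcc5) form the ring that loads onto a broken end, and DNA-PKcs (Prkdc) is the kinase that Ku recruits. The nuclease Artemis (Dclre1c), activated by DNA-PKcs, opens the hairpins left by RAG, and XRCC4 carries the DNA ligase that seals the break.

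Copy number was measured by array comparative genomic hybridisation in thymocyte DNA of 22 untreated mice lacking Atm, the kinase that signals double-strand breaks. A lymphoma of the thymus was present in 8 of them, and in the other 14 nothing was seen on gross inspection. Each mouse has 1 array, on which its DNA (Cy5) competed with wildtype thymocyte DNA (Cy3), so a value is the log2 of the mouse's signal over the wildtype signal, and 0 means as much DNA as in the reference. Every mouse of both groups lacks Atm, and the labels do not state the Atm allele, strain, age or sex, nor whether the reference came from 1 or several wildtype mice. The share of tumour cells in each thymus is not in the labels. Fewer cells with a gain and a smaller gain per cell therefore cannot be told apart.

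The noise between neighbouring probes ranged from 0.152 to 0.372 in the lymphoma arrays and from 0.134 to 0.546 in the others. The 3 noisiest arrays, labelled no-lymphoma mouse 3, 4 and 9, correlated with each other at r of 0.82 to 0.87 over autosomal probes. All 8 of the 231 pairs of arrays with r under -0.3 held 1 of these 3 arrays, the lowest at -0.48 with lymphoma mouse 3, although all arrays have 1 labelled dye orientation. Their median red signals were 166, 163 and 200, below their green signals of 209, 203 and 226. The direction of their ratios is therefore not settled, and the values that rest on them are also given with their sign turned. Both scan batches that hold these arrays contain no lymphoma mouse, so differences within scan batches do not depend on their sign. All 1760 member spots were free of outlier flags and none was saturated, while 3 were not well above background.

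The probes are single-stranded oligonucleotides that sample each gene along its length. The 6 probes of Xrcc6 lie within chr15:82103460-82124165, in the coordinates of the array files, of which the sources used here do not give the build. They are printed, in coordinate order, because the gene mean of Xrcc6 had the largest difference between the groups among the 5 genes. No base is set in capitals since a probe hybridises over its whole length.
A_67_P08436923: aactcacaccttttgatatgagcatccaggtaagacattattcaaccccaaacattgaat
A_67_P03083372: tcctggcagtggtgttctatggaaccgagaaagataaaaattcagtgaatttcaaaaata
A_67_P03083381: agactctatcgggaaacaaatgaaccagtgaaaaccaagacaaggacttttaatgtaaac
A_53_P156080: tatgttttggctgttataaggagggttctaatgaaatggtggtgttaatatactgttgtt
A_53_P116437: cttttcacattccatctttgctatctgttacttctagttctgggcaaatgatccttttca
A_67_P08436983: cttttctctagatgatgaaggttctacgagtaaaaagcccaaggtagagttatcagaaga

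The other sequences shown are those of 2 probes whose values depart from the rest of their gene, both picked after their values were seen. The first Dclre1c probe, at chr2:3346612-3346671, stood apart from the other 6 probes of that gene in the lymphoma arrays. The Prkdc probe at chr16:15248299-15248358 varied most between arrays of all 80 as labelled, with an SD of 0.74 over the 22 arrays against a median SD of 0.23.
A_67_P00291523: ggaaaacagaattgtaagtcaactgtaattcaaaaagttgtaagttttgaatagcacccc
A_67_P08517344: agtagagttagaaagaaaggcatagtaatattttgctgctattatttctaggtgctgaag

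DNA was cut with AluI and RsaI before labelling. The sites of these enzymes, AGCT and GTAC, which read the same on both strands and do not overlap each other, occurred in 0 of the 80 member probes. They occurred in 0.0116% and 0.00745% of all 214824 array probes of 60 bases. The GC content of the member probes ran from 21.7% in Prkdc to 40.0% in Xrcc4. No annotation of the arrays' build was used here, so the exon or intron that each probe lies in is not given.

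Xrcc6, the gene of the Ku70 subunit, was the member with the largest difference between the groups. Its log2 ratio in lymphoma mice 1 to 8 was 0.47, 0.69, 0.83, 0.71, 0.85, 0.59, 0.75 and 0.23. In the 14 mice without lymphoma the lowest value was -0.15, the median 0.16 and the highest 0.70. All 8 lymphoma mice lay above the wildtype reference, as did 12 of the 14 others (9 of 14 with the 3 noisiest arrays turned), and the groups overlapped, as they did for each of the 5 genes; over all genes tested 0.0770% had groups that did not overlap. Lymphoma mouse 8, the lowest of its group, lay below 4 mice without lymphoma (2 with those arrays turned), and no-lymphoma mouse 11, at 0.70, lay above 4 of the lymphoma mice.

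The Xrcc6 mean was 0.64 ± 0.21 (SD, n = 8) with lymphoma and 0.18 ± 0.20 (SD, n = 14) without, or 1.56 and 1.13 times the wildtype DNA on the linear scale. The difference of 0.46 (SE 0.09, 95% interval 0.28 to 0.64) had an adjusted p of 0.0008 in limma, fitted over the 12986 autosomal genes with at least 3 probes. In that fit 1193 genes passed an adjusted p of 0.05 (9.19%), 867 of them higher (6.68%) and 326 lower with lymphoma. Thus 72.7% of the called genes were higher; with arrays centred on the mode 980 were higher and 97 lower, and with another background correction 600 and 60. An exact permutation test of the Xrcc6 value alone gave p = 0.000122 (two-sided). Against the wildtype DNA, Xrcc6 was called in both groups (limma adjusted p = 2.22e-07 with lymphoma, 0.0412 without), where 35.9% and 5.71% of genes were called. These tests leave out the spread of the wildtype channel, and the call in the group without lymphoma was lost in 6 of 10 alternatives and without any 1 of 10 of the 14 arrays, among them no-lymphoma mouse 11 (mean 0.14, adjusted p = 0.0760).

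With the sign of the 3 noisiest arrays turned, the mean without lymphoma was 0.072 ± 0.26 (SD, n = 14) and the Xrcc6 difference 0.57 (limma adjusted p = 0.000547). Arrays were scanned in 6 batches, of which 4 held both groups. Blocked by scan batch, the difference became 0.41 and missed the limma threshold (adjusted p = 0.0719). An exact permutation test of this value alone within scan batches, not adjusted for the number of genes, gave p = 0.0278. Within the batches it was 0.49, 0.74 and 0.53 in 3 of them, and -0.20 in the one that set lymphoma mouse 8 beside no-lymphoma mice 7, 11 and 14.

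**Figure D1:**
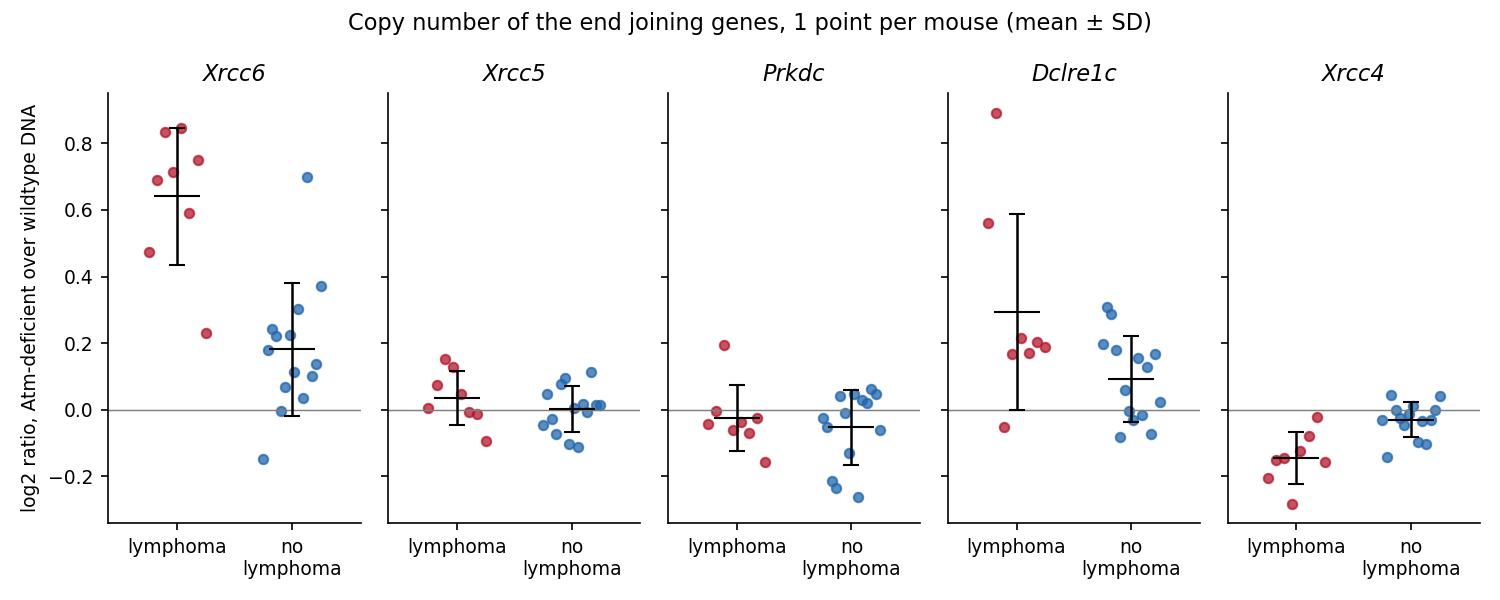
Log2 ratio of Atm-deficient over wildtype DNA (y axis) for the 5 genes, with 1 point per mouse, 8 with lymphoma and 14 without; black bars are the group mean ± SD. Xrcc6 averages 0.64 with lymphoma and 0.18 without, Dclre1c has high points at 0.56 and 0.89 in lymphoma mice 1 and 2, and all 8 lymphoma points of Xrcc4 lie below 0.

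The Xrcc6 difference was of the same size as that of its chromosome. The median of chromosome 15 was 0.46 ± 0.13 (SD, n = 8) with lymphoma and 0.07 ± 0.14 (SD, n = 14) without. The difference was 0.39 (exact permutation p = 3.75e-05, 0.000713 after adjustment over 19 autosomes). With scan batch as a block it was 0.35 and did not pass 0.05 after that adjustment (exact permutation p = 0.0139 within batches, adjusted 0.0660). The 288 arrangements within batches allow no unadjusted p below 0.00347. Of the 529 genes on chromosome 15, 468 were higher with lymphoma at an adjusted limma p under 0.05 (88.5%). With the 3 noisiest arrays turned, the chromosome differed by 0.41 (exact permutation p = 3.44e-05) and 456 genes were higher (86.2%). After the chromosome median of each array was subtracted, Xrcc6 stood at 0.18 ± 0.13 (SD, n = 8) with lymphoma and at 0.11 ± 0.10 (SD, n = 14) without. Both means passed the limma test against 0 (adjusted p = 0.00215 and 0.0324), as 34.9% and 5.69% of genes did. The remaining difference of 0.07 (SE 0.05, 95% interval -0.04 to 0.17) did not pass the limma test (adjusted p = 0.412), in a comparison that called 3.23% of genes.

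The mean without lymphoma rested in part on the 3 noisiest arrays, which stood 0.25, 0.24 and 0.16 above their chromosome median as labelled. With their sign turned it was 0.0185 ± 0.15 (SD, n = 14, 9 of 14 above 0) and did not pass against 0 (limma adjusted p = 0.775). After subtraction of the probes within 2 Mb on either side, Xrcc6 stood at 0.07 ± 0.12 with lymphoma and 0.08 ± 0.09 without (SD, n = 8 and n = 14). That difference was -0.01 (SE 0.05, 95% interval -0.11 to 0.08, limma adjusted p = 0.924), in a comparison that called 2 of 12986 genes (0.0154%). With the 3 noisiest arrays turned it was 0.06 (limma adjusted p = 0.486), and 0.16 against the chromosome (adjusted p = 0.0969). The genes on either side, Desi1 and AY270177, differed by 0.49 and 0.50 (limma adjusted p = 0.00110 and 9.10e-05), and by 0.65 and 0.55 with those arrays turned. All 20 genes whose values over the 22 arrays lay closest to those of Xrcc6 were on chromosome 15, which holds 4.07% of the genes tested. The closest were Nsmce2, a subunit of the SMC5/6 complex, Trmu and Srebf2, with mean absolute differences of 0.07, 0.08 and 0.08.

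**Figure D2:**
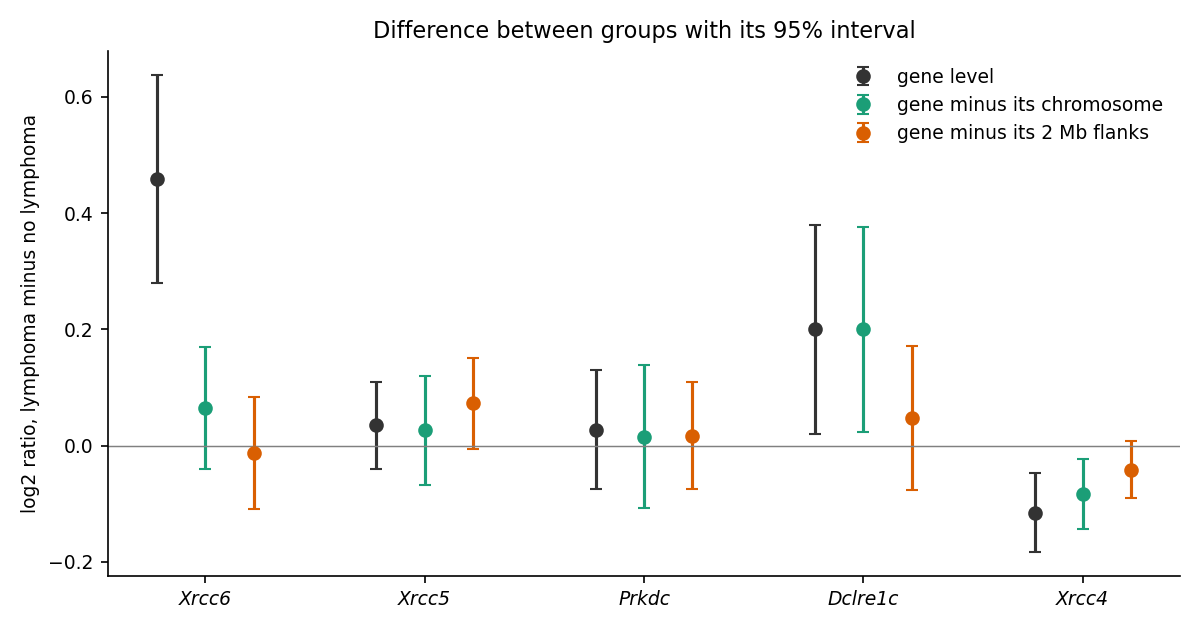
Difference of the mean log2 ratio, lymphoma minus no lymphoma (y axis), for each gene as measured, after subtraction of its chromosome median, and after subtraction of its 2 Mb flanks; bars are 95% intervals of the limma fit, not adjusted for the number of genes. The Xrcc6 difference of 0.46 falls to 0.07 against its chromosome, while that of Dclre1c stays at 0.20 against its chromosome and falls to 0.05 against its flanks.

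Each array was divided into segments of similar log2 ratio, which gave the extent of the Xrcc6 change. A segment need not be a copy number state of its own, which also limits calls close to the limit. On chromosome 15 lymphoma mouse 4 had 34 segments with means from 0.24 to 0.75. No-lymphoma mouse 2 had 42 there, with a chromosome median of 0.0044. A segment mean of 0.25 or more counted as a gain and one of -0.25 or less as a loss. Xrcc6 lay in a gain in 7 of 8 lymphoma mice and in 1 of 14 mice without lymphoma (Fisher exact p = 0.000353, 0.0245 after adjustment over gains and losses of all genes). By this test 2.78% of genes were gained more often with lymphoma. The mouse without lymphoma was no-lymphoma mouse 11, with a gain over 95.5% of the chromosome 15 probes. The lymphoma without the call, lymphoma mouse 8, had a segment of 13.8 Mb over Xrcc6 with a mean of 0.246, just under the limit. Its chromosome 15 median of 0.15 lay below those of no-lymphoma mice 7 (0.17) and 14 (0.21). The segments over Xrcc6 in those mice had means of 0.08 and 0.11.

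All segments of chromosome 15 were gained in lymphoma mice 1, 3 and 5. Gained segments held 97.1% of its probes in mouse 4 and 98.7% in mouse 6. In mouse 4 the exception was 1 segment with a mean of 0.245, just under the limit, and in mouse 6 it was 7 short segments, of which the nearest bound the gained segment over Xrcc6 (chr15:80166483-83760802). In mice 2 and 7 the gain began at chr15:40640807 and chr15:33240384 and ran to the last probe at 103643458, so that it held 68.3% and 75.8% of the probes. None of these segments was limited to Xrcc6. The adjusted Fisher p rose to 0.0790 without scan batch 2, to 0.0726 without the 3 noisiest arrays, and to between 0.0543 and 0.0591 without any 1 of lymphoma mice 1 to 7. At the limit of 0.25, none of the arrays with an unsettled direction had a called segment over any of the 5 genes, so turning their sign changes no call there.

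**Figure D3:**
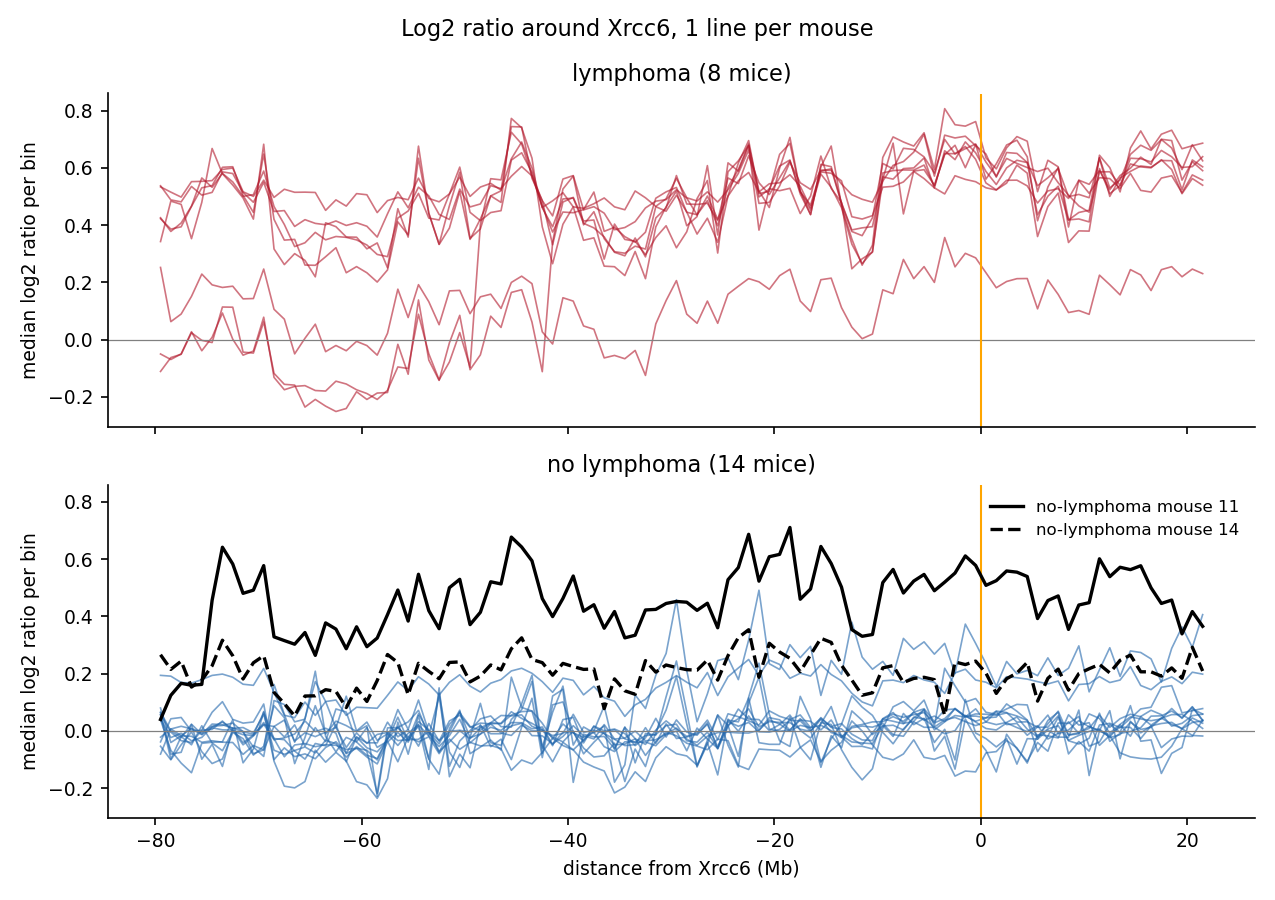
Median log2 ratio per 1 Mb bin (y axis) against the distance from Xrcc6 in Mb (x axis, orange line at the gene), with 1 line per mouse, lymphoma above and no lymphoma below. In lymphoma mice 1, 3, 4, 5 and 6 the line is raised along the whole chromosome, with no bin below 0.20. No-lymphoma mouse 11 (black, solid) is raised along 95.5% of the probes, and no-lymphoma mouse 14 (black, dashed) runs between 0.05 and 0.35.

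All 6 Xrcc6 probes printed above were higher with lymphoma, by 0.35 to 0.55. Their means ran from 0.59 to 0.70 with lymphoma and from 0.05 to 0.32 without. No Xrcc6 probe stood apart, which was set as a group mean over 0.3 from the median of the gene's other probes.

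Xrcc5, the gene of the Ku80 partner subunit on chromosome 1 (chr1:72552345-72636743, 12 probes), was at the wildtype level in both groups. Its values in lymphoma mice 1 to 8 were 0.00, 0.08, 0.15, 0.13, 0.05, -0.01, -0.01 and -0.10. The other 14 mice ranged from -0.11 over a median of 0.01 to 0.11. Apart from lymphoma mice 3 and 4, every lymphoma value lay within the range of the other group. The means were 0.04 ± 0.08 (SD, n = 8) and 0.00 ± 0.07 (SD, n = 14), and the difference of 0.035 (SE 0.04, 95% interval -0.04 to 0.11) did not pass the limma test (adjusted p = 0.548). It was 0.0045 with the 3 noisiest arrays turned (limma adjusted p = 0.941) and -0.02 with scan batch as a block.

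No array had a gain or loss call over Xrcc5. Called segments of at least 1 Mb lay elsewhere on chromosome 1. In lymphoma mice 5 and 6 the nearest was a gain, 59.2 and 91.4 Mb from the gene, with means of 0.59 and 0.51. In no-lymphoma mouse 2 it was a gain 59.3 Mb away with a mean of 0.64. It was a loss in 4 mice, at 10.9, 9.93 and 21.7 Mb in lymphoma mice 3, 4 and 8 and at 3.61 Mb in no-lymphoma mouse 11, with means from -0.40 to -0.25. Against its 2 Mb flanks Xrcc5 differed by 0.07 (SE 0.04, limma adjusted p = 0.384), by 0.0485 with the 3 noisiest arrays turned and by 0.01 with scan batch as a block. Its mean above the flanks in lymphoma, 0.09, passed the limma test against 0 (adjusted p = 0.0487), where 17.3% of genes did. The neighbours Tmem169 and AK122502 differed by 0.01 and -0.01 (limma adjusted p = 0.931 and 0.818), and by -0.11 and 0.01 with those arrays turned. Its probes scattered about 0, with 7 higher and 5 lower with lymphoma (5 and 7 with those arrays turned). Of the 20 genes closest to Xrcc5 over the arrays 2 lay on chromosome 1, and the closest 3, Arhgap12, CL256474 and Eefsec, lay elsewhere.

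The Ku subunits work as a pair, and their genes differed in copy number within the same DNA. Xrcc6 minus Xrcc5 was above 0 in all 8 lymphoma mice, from 0.33 over a median of 0.61 to 0.80. It ranged from -0.10 over a median of 0.13 to 0.70 in the other 14 and was above 0 in 10 of them. After turning the 3 noisiest arrays it ranged there from -0.41 over a median of 0.0022 to 0.70 and was above 0 in 7. The mean was 0.60 ± 0.15 (SD, n = 8) with lymphoma and 0.18 ± 0.23 (SD, n = 14) without, a difference of 0.42 (exact permutation p = 0.000300, two-sided). Turned, the mean without lymphoma was 0.040 ± 0.29 (SD, n = 14) and the difference 0.56 (exact p = 0.000147). Within scan batches the difference was 0.43 (exact p = 0.0174 over 288 arrangements, which allow no p below 0.00347). Probes of different genes can differ in their ratio for the same copy number, so the comparison rests on the difference between groups.

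Prkdc, the gene of the DNA-PKcs kinase on chromosome 16 (chr16:15182207-15382558, 26 probes), was near the wildtype level. Lymphoma mice 1 to 8 read -0.04, -0.00, 0.19, -0.06, -0.04, -0.07, -0.02 and -0.16. The others ranged from -0.26 over a median of -0.02 to 0.06. As labelled, lymphoma mouse 3 was the highest of all 22, and the lowest 3 were no-lymphoma mouse 3, 4 and 9 at -0.21, -0.24 and -0.26. With the sign of these 3 arrays turned they would be the highest, the range without lymphoma -0.13 to 0.26 and its median 0.04. The means were -0.02 ± 0.10 (SD, n = 8) and -0.05 ± 0.11 (SD, n = 14), with a difference of 0.03 (SE 0.05, 95% interval -0.07 to 0.13, limma adjusted p = 0.744).

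The sign of the Prkdc difference was not settled, since it was -0.02 without the 3 noisiest arrays, -0.07 with their sign turned (limma adjusted p = 0.303) and -0.04 with scan batch as a block. No array had a call over Prkdc. In lymphoma mice 1 and 8 the nearest called segment was a gain 50.5 and 46.9 Mb away on chromosome 16, and in lymphoma mouse 6 a gain 3.27 Mb away with a mean of 0.49. The nearest was a loss in lymphoma mouse 4, 31.0 Mb away, and in no-lymphoma mouse 11, 2.62 Mb away with a mean of -0.44. The gene differed from its chromosome by 0.02 and from its flanks by 0.02 between the groups (limma adjusted p = 0.879 and 0.887). The neighbours Mcm4, a subunit of the replicative helicase, and Spidr, a recombination scaffold, each differed by -0.05 (adjusted p = 0.584 and 0.299), and by -0.15 and -0.02 turned.

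At the Prkdc probe printed above 4 arrays lay apart. It read -1.34, -1.71 and -1.73 under the no-lymphoma labels 3, 4 and 9, and 1.38 in lymphoma mouse 3. The other 18 arrays lay between -0.28 and 0.88. Of the 20 genes closest to Prkdc 2 lay on chromosome 16, which holds 3.67% of the genes tested. The closest 3, AK136580, Aatf and Mapt, lay elsewhere. None of the 26 Prkdc probes stood apart in its group mean, and 14 were higher and 12 lower with lymphoma (10 and 16 with the 3 noisiest arrays turned).

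Dclre1c, the gene of Artemis (chr2:3346612-3375645, 7 probes), lies close to the first probes of chromosome 2 and was raised in 2 lymphomas. Lymphoma mice 1 to 8 read 0.56, 0.89, -0.05, 0.17, 0.21, 0.17, 0.20 and 0.19. The mice without lymphoma ranged from -0.08 over a median of 0.09 to 0.31. Only lymphoma mice 1 and 2 lay above all mice of the other group, also with the 3 noisiest arrays turned (range -0.29 to 0.31, median -0.01). The means were 0.29 ± 0.29 (SD, n = 8) and 0.09 ± 0.13 (SD, n = 14), or 1.23 and 1.07 times the wildtype DNA.

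The Dclre1c difference of 0.20 (SE 0.09, 95% interval 0.02 to 0.38) did not pass the limma test after adjustment (adjusted p = 0.147). An exact permutation test of this value alone gave p = 0.0277 (two-sided). With the 3 noisiest arrays turned the difference was 0.29 and passed (limma adjusted p = 0.0392), and without lymphoma mouse 2 it was 0.11. Within scan batches it was 0.56 in the batch with lymphoma mice 2 and 5, and -0.08, 0.14 and 0.02 in the other 3. Against wildtype DNA the lymphoma group was called (limma adjusted p = 0.00233) and the other group was not (adjusted p = 0.316). In that test 35.9% of all genes were called with lymphoma and 5.71% without.

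Dclre1c lay in a gained segment in lymphoma mice 1 and 2 and in none of the 14 others (Fisher exact p = 0.121), while 13.5% of genes were gained in at least 2 lymphomas. In mouse 1 the gained stretch was chr2:3010301-26501946, 23.5 Mb long with 12.7% of the chromosome's probes. In mouse 2 it was chr2:3010301-40447809, 37.4 Mb long with 22.6% of the probes. Both began at the first probe of the chromosome and reached far beyond the gene, while the chromosome median was 0.02 and 0.03 in these mice. Within the stretch, Dclre1c stood 0.01 above its 2 Mb flanks in mouse 1. In mouse 2 it stood 0.24 above them, 4.24 times the standard error that the array's noise gives. In no-lymphoma mouse 2, which has no call, it stood 0.29 above (5.04 times). That standard error takes all probes of an array as equally noisy. Both values include the first Dclre1c probe, the highest of the gene in each of these mice. Without that probe the gene averaged 0.77 in lymphoma mouse 2 and 0.16 in no-lymphoma mouse 2, against flank medians of 0.65 and 0.02. The smaller excess was not tested. Against the chromosome the difference between groups stayed at 0.20 (limma adjusted p = 0.145), and against the 2 Mb flanks it was 0.05 (SE 0.06, adjusted p = 0.741). With the 3 noisiest arrays turned these were 0.29 (adjusted p = 0.0440) and 0.16 (adjusted p = 0.162).

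**Figure D4:**
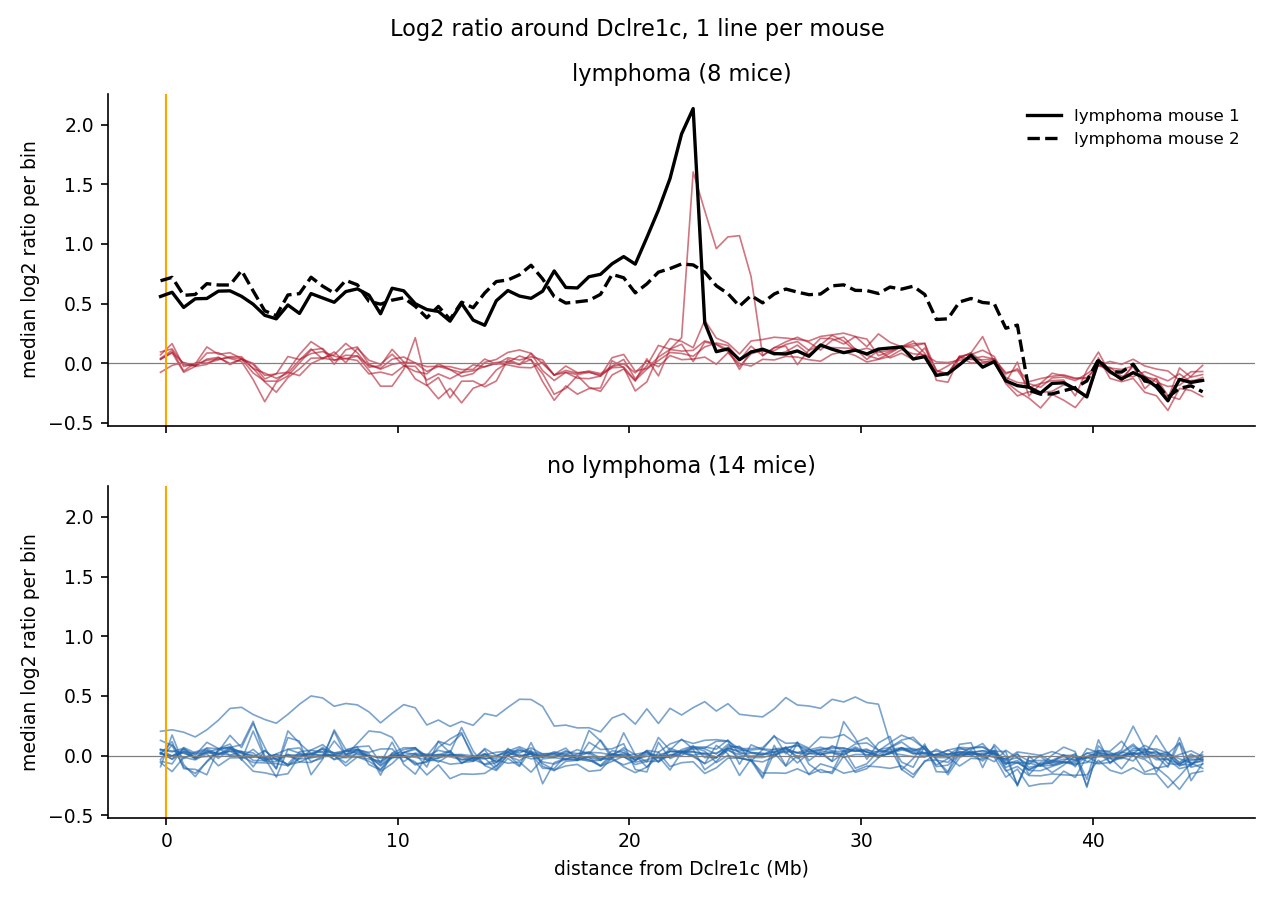
Median log2 ratio per 0.5 Mb bin (y axis) against the distance from Dclre1c in Mb (x axis, orange line at the gene), with 1 line per mouse, lymphoma above and no lymphoma below. The gains of lymphoma mice 1 and 2 (black) start at the chromosome's first probes; that of mouse 1 climbs to 2.13 in the bin 22.75 Mb from the gene and ends there, and that of mouse 2 continues beyond it.

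The stretch in lymphoma mouse 1 was not level. It rose from 0.55 in the segment over Dclre1c to a bin median of 2.13 at 22.75 Mb from the gene, close to Notch1, whose receptor drives T cell development and is often altered in T cell leukaemia. Lymphoma mouse 3 had its own gain in that place, 23.2 Mb from Dclre1c with a mean of 1.05, and no gain at Dclre1c. Over all lymphomas Notch1 averaged 0.75 ± 0.80 (SD, n = 8, 6 probes), against 0.06 ± 0.27 (SD, n = 14) without lymphoma, and Dclre1c minus Notch1 was -0.46 ± 0.83 and 0.03 ± 0.29 (exact permutation p = 0.0376, 0.203 with the 3 noisiest arrays turned, and 0.535 within scan batches). In no-lymphoma mouse 11 a gain with a mean of 0.38 began 2.29 Mb from Dclre1c, in the direction of Notch1, and the segment over the gene itself had a mean of 0.21.

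Of the neighbours of Dclre1c, Meig1 differed by 0.19 and Hspa14 by 0.28 (limma adjusted p = 0.157 and 0.113). Turned, these were 0.29 and 0.22 (adjusted p = 0.0283 and 0.174). Of the 20 genes closest to Dclre1c over the arrays, 7 lay on chromosome 2, which holds 7.92% of the genes tested, and the closest 3, Meig1, Fam107b and AK136031, were all there (mean absolute differences of 0.09, 0.10 and 0.10).

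The first Dclre1c probe, printed above, read 0.73 ± 0.43 with lymphoma and 0.12 ± 0.66 without (SD, n = 8 and n = 14). In the lymphoma group it lay 0.52 above the median of the gene's other probes. It was 1.64 in lymphoma mouse 2 and 0.16 in mouse 1, and it read 1.39 in no-lymphoma mouse 1 and -1.15 in the array labelled no-lymphoma mouse 9. Its values therefore did not follow the segment calls. Without this probe, an alternative added after the data were seen, the gene averaged 0.22 ± 0.32 and 0.09 ± 0.14, a difference of 0.13 (exact permutation p = 0.201), or 0.27 with the 3 noisiest arrays turned (exact p = 0.0130). All 7 probes were higher with lymphoma, the others by 0.01 to 0.21.

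**Figure D5:**
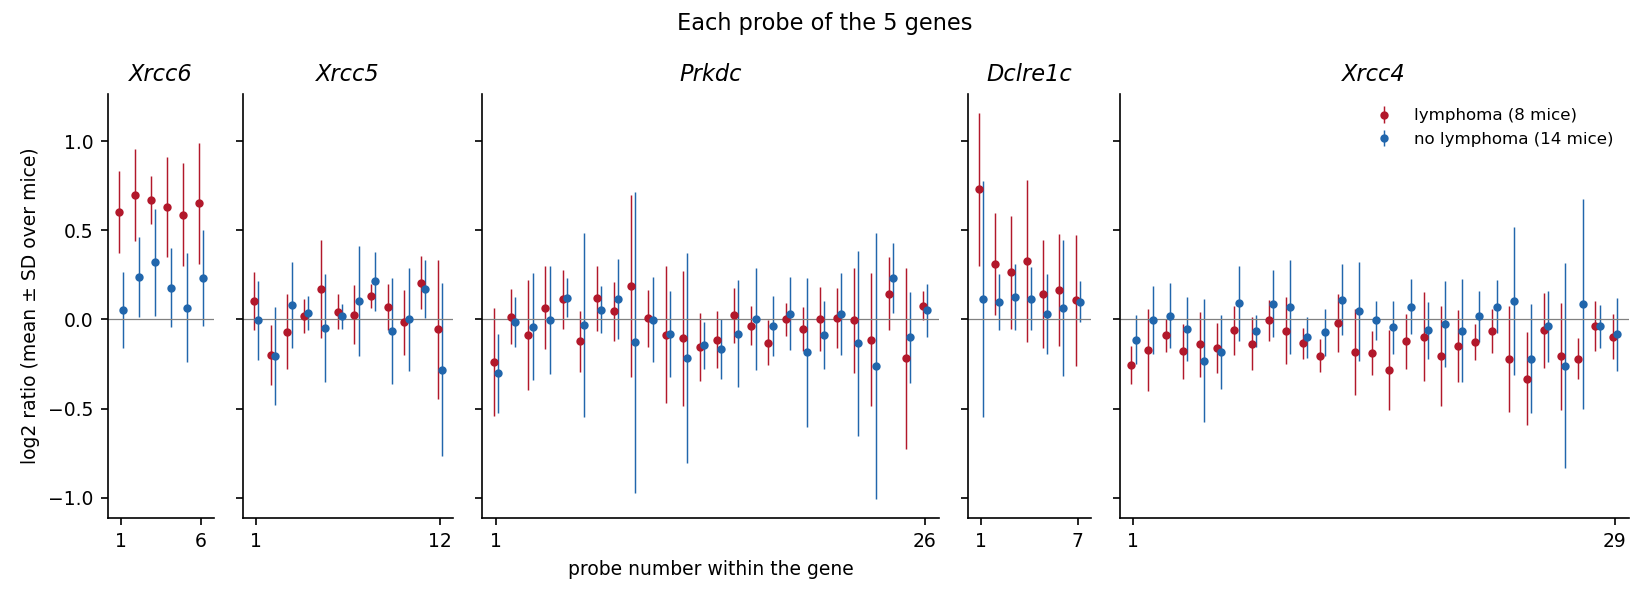
Mean log2 ratio of each probe (y axis, ± SD over mice) against its number within the gene in coordinate order (x axis), for lymphoma (red, 8 mice) and no lymphoma (blue, 14 mice). The 6 Xrcc6 probes are all higher with lymphoma. In the lymphoma group the first Dclre1c probe stands at 0.73, which is 0.52 above the median of the gene's other probes. Of the 29 Xrcc4 probes, 25 are lower with lymphoma (23 with the 3 noisiest arrays turned).

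Xrcc4, the gene of the ligase scaffold on chromosome 13 (chr13:86923321-87162467, 29 probes), was slightly lower with lymphoma. Lymphoma mice 1 to 8 read -0.20, -0.15, -0.14, -0.28, -0.12, -0.08, -0.02 and -0.16. The other mice ranged from -0.14 over a median of -0.03 to 0.05. All 8 lymphoma values were below 0 and 5 of them were below every mouse of the other group, also with the 3 noisiest arrays turned. The means were -0.14 ± 0.08 (SD, n = 8) and -0.03 ± 0.05 (SD, n = 14), or 0.904 and 0.979 times the wildtype DNA.

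The Xrcc4 difference was -0.115 (SE 0.03, 95% interval -0.18 to -0.05) and passed the limma test (adjusted p = 0.0262), as did 2.51% of genes in this direction. The exact permutation test of this value gave p = 0.000550 (two-sided). The adjusted p was lost with 4 alternatives: 0.130 with arrays centred on the mode (difference -0.08), 0.191 with another background correction (-0.09), 0.241 with scan batch as a block (-0.09) and 0.0830 without scan batch 2. It was also lost without lymphoma mouse 1 (0.0569) or mouse 4 (0.0766). The difference was negative in each of the 4 batches that hold both groups, from -0.05 to -0.13. An exact permutation test of this value alone within scan batches, not adjusted for the number of genes, gave p = 0.00694. The lowest p possible there is 0.00347. With the 3 noisiest arrays turned the difference was -0.12 (limma adjusted p = 0.0172). Against wildtype DNA Xrcc4 was called in the lymphoma group (limma adjusted p = 0.000162) and not in the other (adjusted p = 0.402). In that test 35.9% of all genes were called with lymphoma and 5.71% without.

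Chromosome 13 as a whole differed by -0.03 (exact permutation p = 0.00455, adjusted over 19 autosomes 0.0123). It differed by -0.03 with the 3 noisiest arrays turned (exact p = 0.00522) and by 0.0004 with arrays centred on the mode. With scan batch as a block it was -0.02 (exact p = 0.181 within batches). Such a shift was not particular to it. Chromosomes 3, 6, 12 and 18 also passed after adjustment, at -0.03, -0.03, -0.09 and -0.04, as did chromosomes 11 and 15 upwards (0.04 and 0.39). Against its chromosome, Xrcc4 stood at -0.10 ± 0.07 with lymphoma and -0.02 ± 0.04 without (SD, n = 8 and n = 14), a difference of -0.08 (limma adjusted p = 0.0962). Against its flanks the difference was -0.04 (SE 0.02, 95% interval -0.09 to 0.01, adjusted p = 0.435). With the 3 noisiest arrays turned, these were -0.09 (adjusted p = 0.0505) and -0.04 (adjusted p = 0.288). Of the chromosome's 535 genes, 3.36% were called lower with lymphoma (7.29% turned). The neighbours AK087351 and Tmem167 differed by -0.12 and -0.02 (limma adjusted p = 0.145 and 0.762), and by -0.09 and -0.09 turned.

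A loss was called over Xrcc4 in lymphoma mouse 4 alone, with a segment of 4.63 Mb and a mean of -0.26 (Fisher exact p = 0.364). No loss was called there with a limit of 0.35 or with another break penalty, and with a limit of 0.15 there were 5 losses in lymphoma mice and 1 in the others. The segments over the gene in the other lymphoma mice were between 5.44 and 16.0 Mb long, with means of -0.21 to -0.03. None of the 20 genes closest to Xrcc4 over the arrays lay on chromosome 13, which holds 4.12% of the genes tested. The closest 3, AK132682, AK050668 and AK173231, are on chromosomes 16, 8 and 6.

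Among the 5 genes 1 was called higher and 1 lower with lymphoma, beside 6.68% and 2.51% of all genes, and their median difference was 0.035, beside 0.05 over all 12986 genes tested. Turned as above, 2 of the 5 were higher and 1 lower, and 13.7% of all genes were called. The other genes of break repair were taken from 5 lists. Of the other classical end joining factors, 4 of 10 had at least 3 probes, and Aplf, which binds Ku and brings in further joining factors, was higher with lymphoma. Aplf averaged 0.15 ± 0.05 (SD, n = 8) and 0.02 ± 0.075 (SD, n = 14), a difference of 0.13 (limma adjusted p = 0.0200), with no gain call. The adjusted p of Aplf was 0.259 with scan batch as a block, 0.154 with the median of its probes, 0.0847 with another background correction, 0.0668 without scan batch 2 and 0.0365 with the 3 noisiest arrays turned. After subtraction of its chromosome median, the Aplf difference as labelled was 0.16 (limma adjusted p = 0.0160), in a comparison that called 3.23% of genes. Against its 2 Mb flanks it was 0.08. As measured, Nhej1, Dntt and Aptx did not pass (differences -0.01, 0.03 and 0.16).

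Lig4, the ligase that XRCC4 carries, has 1 probe, which read 0.14 ± 0.28 and -0.12 ± 0.37 (SD, n = 8 and n = 14). Its difference of 0.26 did not pass when all genes with at least 1 probe were fitted (limma adjusted p = 0.298). Rag1, Rag2 and Hmgb1 have fewer than 3 probes each, and in that fit they differed by 0.09, 0.11 and 0.08 (adjusted p = 0.584, 0.579 and 0.721).

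No gene of alternative end joining (7 of 8 tested), of Atm break signalling (8 of 10) or of homologous recombination (8 of 10) passed the limma test between the groups, where 9.19% of all genes did. After turning those arrays 1 did, Rnf168, a ubiquitin ligase of break signalling (0.15, adjusted p = 0.0449), which was named after its value was seen. Their median differences were 0.10, 0.05 and 0.09. Parp1, the break sensor of alternative end joining, lay in a gain in 5 of 8 lymphoma mice, on the same chromosome as Xrcc5. Of all 12986 genes tested, 846 lay in a gain in 4 or more lymphoma mice. Parp1 averaged 0.50 ± 0.26 (SD, n = 8) and 0.18 ± 0.33 (SD, n = 14), a difference of 0.32 (limma adjusted p = 0.124), which passed without no-lymphoma mouse 11 (0.39, adjusted p = 0.0162). It was 0.29 with the 3 noisiest arrays turned (limma adjusted p = 0.117). Atm itself, over 12 probes, read 0.19 ± 0.06 and 0.05 ± 0.14 (adjusted p = 0.102). These probes do not test the knockout, since the labels do not state which part of the gene was altered.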

How the data were processed

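Spots were quantified with Agilent Feature Extraction 9.1, per the submitters' processing notes. The deposited scanner files hold each spot's brightness as intensity, and per the file headers the processed intensity had its background removed and its dyes normalised. The deposited log ratios are log10 of red over green, and the series' value table repeats them, with column medians from -0.0199 to 0.0164. In no-lymphoma mouse 11 they departed from the ratios of the processed signals, by 0.0651 (log10) at the 99th percentile. The other arrays departed by at most 3.45e-07. That mouse's array also had the largest share of spots not well above background (1.54%).

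Here, log2 ratios of processed signals were taken without outlier-flagged spots, averaged per probe, centred on each array's autosomal median and averaged per gene. No loess or quantile step was used. Each member rests on 6 to 29 probes and 1 array per mouse, so precision depends on how many arrays there are. Gene symbols were updated with a RefSeq table of GRCm38.p6, from which no coordinate was taken: 12155 of 25707 array names are symbols in it, 3590 are synonyms and 1 is an accession.

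The group comparison used lmFit and eBayes of limma 3.58.1 (R 4.3.3), with Benjamini-Hochberg adjustment over all autosomal genes with at least 3 probes. Intervals use the limma SE and 20 degrees of freedom. Single values were tested by exact two-sided permutation over all 319770 splits of the arrays. Segments came from optimal partitioning (penalty factor 3, at least 5 probes; Python 3.11.15, numba 0.67.0, numpy 2.4.6), and calls were compared by Fisher's exact test (scipy 1.17.1). The limma fit and the segmentation were run on simulated data with independent normal noise. Those data held no scan batches and no arrays of unsettled direction, so the runs do not cover these features. Groups come from the sample labels, and each array is a separate mouse. The genes named are the members, the nearest gene on either side, the 3 genes closest over all arrays, and pathway genes that passed the test or were gained or lost in 4 or more lymphomas; further list genes and Notch1 were named after their values were seen. The members and lists were chosen with earlier results of these data known.

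Alternatives were another centring, normexp background correction (offset 50), the median of probes, genes with 1 probe, flagged spots kept, scan batch as a block, arrays left out, signs turned, other flanks and segment settings, and the value table. Normexp used median signals, since some files hold no mean signals. Sex chromosomes were not used.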

Additional observations from a re-analysis of the deposited data

Results flagged for a closer look

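In 2 of 15 combinations of gene and measure, 1 lymphoma mouse lay far from the other 7, by Dixon's criterion for 8 values (0.526); chance gives such a value in about 1 of 20 groups. Both concern Prkdc in lymphoma mouse 3, the noisiest lymphoma array, which read 0.19 as measured and 0.13 above its 2 Mb flanks, the highest of its group in each case. The noise of that array was 0.37, against 0.15 to 0.23 in the other lymphoma arrays. Without it the Prkdc difference between groups was -0.00 as measured and -0.01 against the flanks, neither past the limma threshold (adjusted p = 0.972 and 0.975). The part of noise in these values was not tested.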

How the results depend on the processing

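The Xrcc6 difference was positive in all 11 alternatives, from 0.41 to 0.57, and lost its limma call only with scan batch as a block (0.41). The Xrcc4 difference was negative in all 11 and missed the threshold when centred on the mode (-0.083), with normexp (-0.087), with the block (-0.090) and without scan batch 2 (-0.11). Without 1 array it ranged from -0.13 to -0.0955. The Dclre1c difference passed only with the 3 noisiest arrays turned (0.29, and 0.29 against its chromosome). Without its first probe it was 0.13, and without 1 array 0.11 to 0.25.

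Differences near 0 changed sign, none of them called. Xrcc5 was -0.011 with normexp and -0.0171 with the block, and against its chromosome -0.0199 and -0.0095. Prkdc was -0.0354 with the block, -0.0012 without scan batch 2, -0.0226 without the 3 noisiest arrays, -0.040 with batch 2 turned, -0.0738 with the 3 noisiest turned, and from -0.0037 to 0.0462 without 1 array. Against its chromosome these were -0.0712, -0.0168, -0.0464, -0.0576 and -0.10, and from -0.0170 to 0.0495. Against its flanks they were -0.0483, -0.0119, -0.0345, -0.0472 and -0.0827, and from -0.0056 to 0.0321. Xrcc6 against its flanks was 0.0236 with normexp, 0.0070 without batch 2, 0.0133 without the 3 noisiest arrays, 0.0530 and 0.0630 with batch 2 or those 3 turned, and from -0.0335 to 0.0202 without 1 array. Dclre1c against its flanks was -0.0180 with normexp. The chromosome 13 difference was -0.0190 with the block and 0.0004 when centred on the mode.

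Against wildtype DNA, Xrcc6 without lymphoma missed the threshold at 0.17 (mode), 0.14 (normexp), 0.18 (median of probes), 0.16 (without the 3 noisiest arrays), 0.14 (batch 2 turned) and 0.0722 (those 3 turned), and ranged from 0.14 to 0.21 without 1 array. Xrcc5 was -0.0348 with lymphoma under normexp, and without lymphoma -0.0057 (mode), -0.0238 (normexp) and -0.0072 to 0.0102 without 1 array. Prkdc was 0.0004 with lymphoma (mode), and without lymphoma 0.0151 and 0.0489 with batch 2 or those 3 turned. Dclre1c without lymphoma was -0.0018 with batch 2 turned.

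Over all genes, 374 were higher with the block, and 97 (mode), 60 (normexp), 52 (block), 130 (without batch 2) and 641 (the 3 noisiest turned) were lower. The excess of Xrcc6 gain calls with lymphoma was 78.4 percentage points, no longer past the adjusted Fisher threshold, both without batch 2 and without the 3 noisiest arrays, and ranged from 78.6 to 92.9 without 1 array. With batch 2 or those arrays left out, Fisher's exact test called 0 genes after adjustment and 747 or 745 at an unadjusted p under 0.05. With a call limit of 0.15, gains without lymphoma numbered 2 for Xrcc6 and 1 for Dclre1c, and Xrcc4 losses 5 with and 1 without lymphoma. Of these 2 Xrcc6 gains, that of no-lymphoma mouse 9 (segment mean 0.20) rests on an array of unsettled direction and would not be a gain if turned. Xrcc4 losses were 0 with a limit of 0.35 and with break penalties of 2 and 5. The cause of these changes was not tested.

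No paired analysis was possible because each array is a separate mouse and the labels state no pairing between the groups. Of 1760 member spots, 3 were not well above background, so precision is limited by the number of arrays.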
